A study of Mus musculus with 16 samples.

Results

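Transcript signals of the MHC class II genes and of the genes that load and regulate class II molecules were read in peritoneal B1a cells and splenic B cells of lupus-congenic and control mice. The members are 10 genes: H2-Aa, H2-Ab1 and H2-Eb1, which encode chains of the surface molecules, H2-DMa, H2-DMb1, H2-DMb2, H2-Oa and H2-Ob, which encode the chains of the loading proteins, and Cd74 and Ciita. Every array feature (probe set) whose platform symbol is one of these names was taken, which gave 22 of the 45101 probe sets on the array. Of these, 19 carried 1 symbol, and 3 carried a pair of symbols. H2-DMb1 had no probe set of its own and was read only through 2 probe sets annotated to both H2-DMb1 and H2-DMb2, and 1 of the 2 probe sets of H2-Ob was also annotated to Gm20506. Some probe set names end in _s_at or _x_at, which in this array family marks probes that can match other transcripts as well.

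The arrays form 4 groups of 4. Sle2c1_B1a and B6_B1a are B1a cells of the peritoneal cavity, from B6.Sle2c1 mice and from C57BL/6 mice (B6), and Sle2c1_Bs and B6_Bs are CD43- splenic B cells from the same strains, all at 5 months of age. B6.Sle2c1 is a congenic strain, in which a segment derived from the lupus-prone NZM2410 strain, named in the title together with Cdkn2c, was bred onto the B6 background, so that both strains share the rest of the B6 genome. The peritoneal preparations passed through 2 h of culture at which adherent macrophages were removed, and through selection with Thy1.2, CD3ε and CD5 antibodies, and the labels put them at 80% B220int CD5+ cells, against over 90% B220hi cells for the splenic ones. The series describes its replicates as biological, and no label used here says whether animals were pooled.

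Class II molecules present peptides from endocytosed proteins to CD4 T cells. Cd74, the invariant chain, occupies the binding groove of newly made class II molecules and carries them to endosomes, where cathepsins trim it to a short fragment that H2-DM removes and replaces with antigenic peptide. H2-O, which B cells make, restrains H2-DM. Ciita is a coactivator of class II genes that joins RFX, CREB and NF-Y proteins on a shared promoter module. Prdm1 (Blimp-1) silences Ciita as B cells become plasma cells. B6 mice carry the b haplotype of the MHC, in which H2-Ea is not transcribed, so that H2-Eb1 lacks its usual partner chain.

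Letters of this module were looked for in the promoters of the members. RefSeq (GRCm38.p6) promoter entries were found for 7 of the 10 genes in 8 windows, and none was found for H2-Ab1, Ciita and Cd74. The 150 bases before the start site were searched on both strands for TGATTGG, the Y box bound by NF-Y, and for AACNNNTGA, a part of the X box, whose letters were chosen after these promoters had been read. The Y box was found in 6 of the 8 windows, against 5.71% of 32851 promoters. An X match 10 to 35 bases ahead of a Y box on the strand of the gene was found in 4 member windows, out of 9 among the 32851 promoters (0.0274%). These 4 windows are shown because they hold letters of both boxes, with the X match (first) and the Y box (second) in capitals. They lie at chr17:34305717-34305866 (H2-Eb1), chr17:34238755-34238904 (H2-Ob), chr17:34153041-34153190 (H2-DMb1) and chr17:34145099-34145248 (H2-DMb2), all on the plus strand and all ending at the base before the start.
H2-Eb1: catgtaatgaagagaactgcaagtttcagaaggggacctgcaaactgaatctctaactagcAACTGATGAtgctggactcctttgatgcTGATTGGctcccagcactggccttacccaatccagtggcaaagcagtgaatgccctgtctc
H2-Ob: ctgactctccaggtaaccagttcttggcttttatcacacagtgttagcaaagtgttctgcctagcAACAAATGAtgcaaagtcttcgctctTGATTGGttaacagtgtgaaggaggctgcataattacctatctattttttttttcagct
H2-DMb1: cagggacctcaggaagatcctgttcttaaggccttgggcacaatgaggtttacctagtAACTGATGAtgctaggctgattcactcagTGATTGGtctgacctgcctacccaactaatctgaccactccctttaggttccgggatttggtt
H2-DMb2: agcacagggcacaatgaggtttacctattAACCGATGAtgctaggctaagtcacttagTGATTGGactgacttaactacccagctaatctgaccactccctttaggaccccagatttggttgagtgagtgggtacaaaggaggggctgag
The Y box began 61 (H2-Eb1), 59 (H2-Ob), 63 (H2-DMb1) and 92 (H2-DMb2) bases before the start, and the X match began 26 to 29 bases ahead of it in all 4. H2-Oa and H2-Aa held the Y box without an X match of these letters, at 45 and 50 bases before the start, and neither window of H2-DMa held either motif. A match describes the letters of a window and is not evidence of binding.

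The values are a log-like score whose base and centring the sources used here do not give, so differences are in units of that score and never folds, and levels are not compared between probe sets. Array medians ran from 0.68 to 1.12 units. Values below 0.495 units, called the floor, carry no level and were raised to it. Sle2c1_B1a array 4 and B6_Bs array 3 had the highest medians (1.09 and 1.12) and the lowest signals of the hybridisation control cre (4.53 and 4.55 units). All 22 member probe sets passed the filter on low values, and 21 lay above the floor on all 16 arrays. The exception was H2-Aa 1443783_x_at. Cdkn2c averaged 0.613 ± 0.183 units in Sle2c1_B1a and 1.21 ± 0.132 in B6_B1a, and 0.521 ± 0.0525 in Sle2c1_Bs and 1.42 ± 0.172 in B6_Bs (SD, n = 4 each). B1a markers such as Il10, Zbtb32 and Plscr1 were higher in B1a than in Bs cells, at 5 of 7 (Sle2c1) and 6 of 7 (B6) markers. Cd5 and Bhlhe41 did not pass in Sle2c1 cells, nor did Bhlhe41 in B6 cells. Cd5, a target of the selection, averaged 0.745 units in Sle2c1_B1a (2 of 4 arrays at the floor) and 1.08 in B6_B1a. Of 3 tested follicular markers, Cr2 and Fcer2a were lower in B1a cells of both strains. The third, Cxcr5, passed in neither, at -0.035 units in Sle2c1 (limma adjusted p = 0.713) and 0.165 in B6 (adjusted p = 0.0727). By the same test, 12.8% (Sle2c1) and 11% (B6) of all named genes were higher in B1a cells, and 14.2% and 10.8% were lower. Because RNA of whole preparations was measured, fewer cells with a transcript and less of it per cell cannot be told apart.

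The comparison of B1a with Bs cells asks how class II signals differ between the peritoneal B1a and the splenic B cell preparations. The labels give 2 h of culture in 10% serum and selection with CD5 antibody for the B1a preparations alone. Cell type, tissue and handling therefore cannot be told apart in any B1a against Bs difference. In Sle2c1 cells, 14 of the 22 member probe sets were lower in B1a than in Bs cells and 0 were higher, by limma with Benjamini-Hochberg adjusted p under 0.05, against 13.7% of all 35032 probe sets called lower and 11.1% called higher. The groups did not overlap, with B1a lower, at 18 of the 22 (14.4% of all probe sets). In B6 cells 11 of the 22 were lower in B1a and 0 higher, against 10.7% called lower and 9.21% called higher among all probe sets, and 11 did not overlap (10.9% of all). The median difference, B1a minus Bs, was -0.24 units over the members in Sle2c1 cells and -0.20 in B6 cells, against -0.026 and -0.0275 over all probe sets tested.

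The members were also set beside the 4566 probe sets whose mean exceeded 2.5 units, which include 17 members. There 12 (Sle2c1) and 9 (B6) of the 17 were lower in B1a cells, against 24% and 20.5% of all high-level probe sets. Their median differences were -0.24 and -0.20 units, against -0.04 and -0.03. These counts depend on the scaling between arrays. Centring each array on its median left 7 (Sle2c1) and 1 (B6) of the 22 called, quantile normalization left 8 and 5, and centring with scaling to a common interquartile range left 2 and 0. Of all 35032 probe sets, 7107 and 6119, 8268 and 6955, and 5573 and 5384 were then called in either direction. The share of members called was thus below that of all probe sets with interquartile range scaling, and in B6 cells also with median centring. The 1 left in B6 cells with median centring was H2-Ob 1440837_at, and the 2 left in Sle2c1 cells with interquartile range scaling were those of Ciita. No call of H2-Aa, H2-Ab1, H2-DMb1 or H2-DMb2 was left under interquartile range scaling in either strain, or with median centring in B6 cells. All 22 differences in Sle2c1 cells kept their negative sign under these 3 scalings, while in B6 cells 20 negative differences became 19, 19 and 16. The member medians were -0.26 (Sle2c1) and -0.17 units (B6) with median centring, -0.13 and -0.12 with quantile normalization, and -0.13 and -0.041 with interquartile range scaling. Over all probe sets the medians were -0.0375 and -0.005, 0 and 0.0056, and -0.001 and 0.0224 units in the same order. The hybridisation control bioB read 3.35 to 3.50 units in Sle2c1_B1a, against 3.64 to 3.83 in Sle2c1_Bs, without overlap. In B6 cells it read 3.09 to 3.43 units in B6_B1a, against 3.18 to 3.86 in B6_Bs. The control cre overlapped between cell types in both strains. The part of the controls' shifts in the cell type differences was not tested.

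**Figure D1:**
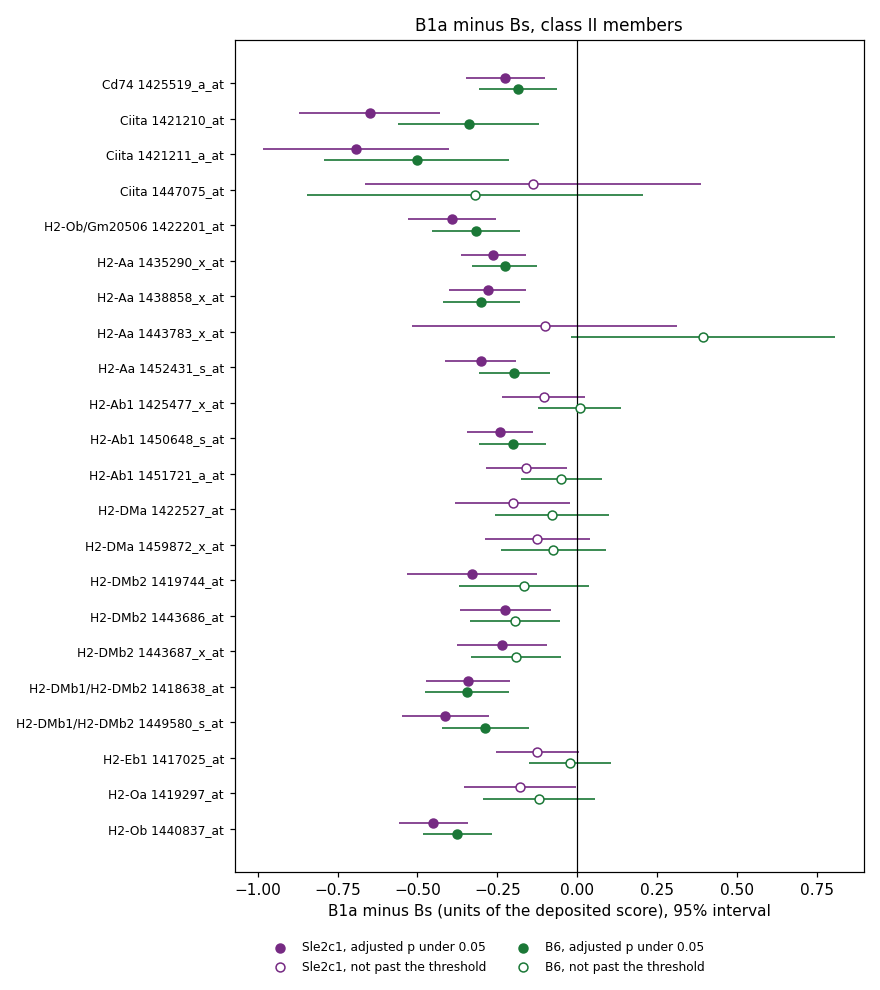
Difference of B1a minus Bs cells for each of the 22 member probe sets, in units of the deposited score, in Sle2c1 (purple) and B6 (green) mice. Points are differences of group means of 4 arrays, bars are 95% intervals of the limma fit, and filled points passed an adjusted p of 0.05 (14 in Sle2c1, 11 in B6).

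Ciita had the 2 largest differences among the members in Sle2c1 cells. Probe set 1421211_a_at read 1.65, 1.61, 1.44 and 0.91 units in Sle2c1_B1a, against 2.03, 2.10, 2.05 and 2.20 in Sle2c1_Bs. It read 1.68, 1.65, 1.29 and 1.5 units in B6_B1a, against 2.04, 2.05, 1.96 and 2.08 in B6_Bs. All 8 B1a arrays lay below all 8 Bs arrays, and the lowest value was that of Sle2c1_B1a array 4. The differences were -0.69 units in Sle2c1 cells (SE 0.135, limma adjusted p = 0.00178) and -0.50 in B6 cells (adjusted p = 0.0182).
Probe set 1421210_at read 1.37, 1.18, 0.99 and 0.78 units in Sle2c1_B1a, against 1.81, 1.71, 1.72 and 1.68 in Sle2c1_Bs. It read 1.38, 1.14, 1.19 and 1.33 units in B6_B1a, against 1.59, 1.58, 1.54 and 1.69 in B6_Bs. Here too no B1a array reached a Bs array. The differences were -0.65 units in Sle2c1 cells (limma adjusted p = 0.000344) and -0.34 in B6 cells (adjusted p = 0.0325). In Sle2c1 cells both calls held under every alternative setting and without any single array, with adjusted p of at most 0.0226. In B6 cells the call of 1421210_at ended without B6_B1a array 2 or 3 or B6_Bs array 2 or 4 (adjusted p up to 0.0939), and that of 1421211_a_at ended without B6_B1a array 3 (adjusted p = 0.0619). Both calls in B6 cells also ended under the 3 other scalings (adjusted p up to 0.27), and that of 1421210_at with no floor (0.0524), a floor at the 25th percentile (0.0533) and limma's trend and robust options (0.0772). The other Ciita probe set, 1447075_at, scattered widely, from 0.75 to 1.88 units in Sle2c1_B1a and from 0.54 to 1.42 in B6_B1a, against 1.07 to 1.78 in Sle2c1_Bs and 1.20 to 1.59 in B6_Bs. It did not pass in either strain (adjusted p = 0.714 and 0.396) and correlated with the other Ciita probe sets at r = 0.226 and 0.304 over the 16 arrays, whereas those correlated at 0.933 with each other.

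H2-Ob encodes the beta chain of the H2-DM inhibitor H2-O and had the smallest adjusted p of the members in both strains. Probe set 1440837_at read 3.37, 3.38, 3.36 and 3.35 units in Sle2c1_B1a, against 3.81, 3.87, 3.76 and 3.82 in Sle2c1_Bs. It read 3.50, 3.45, 3.44 and 3.42 units in B6_B1a, against 3.80, 3.85, 3.75 and 3.91 in B6_Bs. The gap between cell types was wider than the spread within any group. B1a minus Bs was -0.45 units in Sle2c1 cells (limma adjusted p = 1.55e-05) and -0.38 in B6 cells (adjusted p = 0.000113), and neither call was lost without any single array. Of the alternatives run, centring with interquartile range scaling alone ended them (adjusted p = 0.288 and 0.548). The probe set shared with Gm20506 also passed in both strains, with differences of -0.39 (Sle2c1) and -0.32 units (B6), calls that ended under the same scaling (adjusted p = 0.286 and 0.552) and, in B6, with median centring (0.111).
H2-Oa, the alpha chain of the same molecule, averaged 2.65 ± 0.0762 units in Sle2c1_B1a and 2.83 ± 0.0825 in Sle2c1_Bs, and 2.62 ± 0.066 in B6_B1a and 2.74 ± 0.172 in B6_Bs (SD, n = 4 each). It did not pass in either strain, with 95% intervals of -0.35 to -0.0052 units in Sle2c1 cells and -0.29 to 0.0548 in B6 cells.

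**Figure D2:**
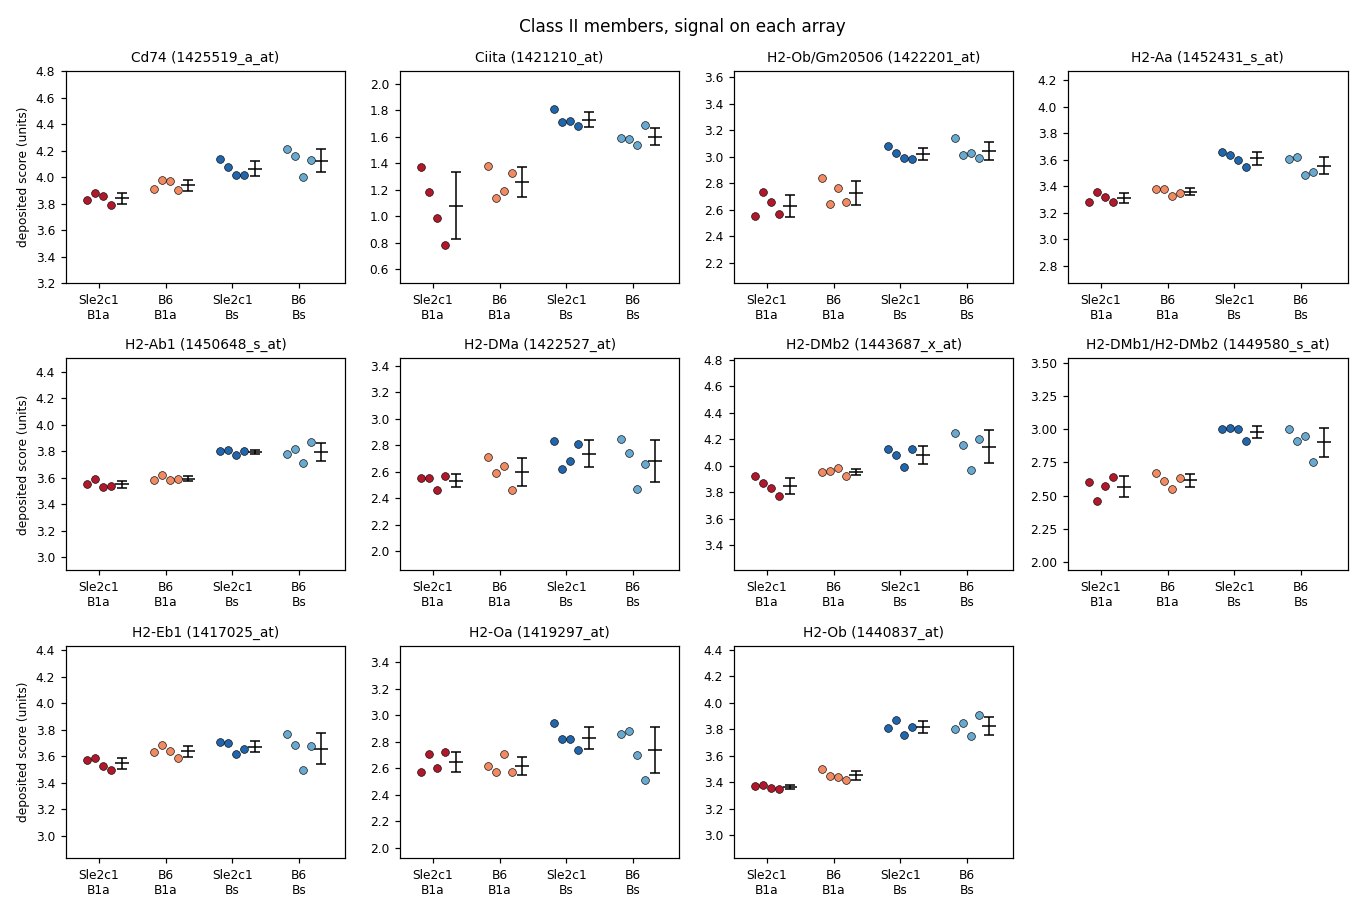
Deposited score on each of the 16 arrays of 1 probe set for each platform symbol of the members, in the order Sle2c1_B1a, B6_B1a, Sle2c1_Bs and B6_Bs, each panel spanning the same number of units. The probe set shown for a symbol is the one with its smallest limma p for B1a against Bs in Sle2c1 cells, so probe sets that differed less are not shown. Points are arrays, and the bar beside each group is its mean with the SD of 4 arrays. Ciita 1421210_at and H2-Ob 1440837_at lie lower on all B1a arrays than on all Bs arrays.

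The chain pair of H2-DM, which catalyses peptide loading, differed unevenly. The H2-DMb1/H2-DMb2 probe set 1449580_s_at read 2.6, 2.46, 2.57 and 2.64 units in Sle2c1_B1a, against 3.00, 3.01, 3.00 and 2.91 in Sle2c1_Bs. It read 2.67, 2.61, 2.55 and 2.63 units in B6_B1a, against 3.00, 2.91, 2.95 and 2.75 in B6_Bs. No B1a array reached the Bs arrays of its strain, and the differences were -0.41 units in Sle2c1 (limma adjusted p = 0.000281) and -0.29 in B6 (adjusted p = 0.00582). The other shared probe set, 1418638_at, differed by -0.34 units in Sle2c1 and -0.345 in B6 (adjusted p = 0.000968 and 0.00121). The calls of both shared probe sets ended under centring with interquartile range scaling, and those in B6 cells also with median centring. Of the 3 probe sets annotated to H2-DMb2 alone, all passed in Sle2c1 cells with differences of -0.33 to -0.225 units, and none in B6 cells, with differences of -0.20 to -0.17. Each of these 3 calls in Sle2c1 cells depended on single arrays. That of 1419744_at ended without Sle2c1_Bs array 1, 2 or 3 (adjusted p up to 0.0641), that of 1443686_at without Sle2c1_B1a array 4 or Sle2c1_Bs array 1, 2 or 4 (up to 0.0631), and that of 1443687_x_at without Sle2c1_Bs array 1 (0.0501). Neither probe set of H2-DMa, the alpha chain, passed in either strain, with differences of -0.20 and -0.13 units in Sle2c1 cells and -0.08 and -0.075 in B6 cells.

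A pair of H2-DMb2 probe sets followed Cd74 more closely than they followed the third. Over the 16 arrays 1443686_at and 1443687_x_at correlated with Cd74 at r = 0.948 each and with each other at 0.999, against 0.426 and 0.433 with 1419744_at, which in turn correlated with the shared probe set 1449580_s_at at 0.869. These are descriptions over arrays that share their groups.

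Among the chains of the surface molecule, H2-Aa and H2-Ab1 gave lower signals in B1a cells at some probe sets and H2-Eb1 did not pass. H2-Aa 1435290_x_at read 3.67, 3.7, 3.66 and 3.67 units in Sle2c1_B1a, against 3.95, 3.97, 3.92 and 3.91 in Sle2c1_Bs. It read 3.69, 3.68, 3.64 and 3.7 units in B6_B1a, against 3.85, 3.95, 3.87 and 3.95 in B6_Bs. The cell types did not overlap, and the differences were -0.26 units in Sle2c1 cells (limma adjusted p = 0.000919) and -0.23 in B6 cells (adjusted p = 0.00349). Probe sets 1438858_x_at and 1452431_s_at of H2-Aa were lower as well, with differences of -0.30 to -0.20 units. When single arrays were left out, only the H2-Aa call of 1452431_s_at in B6 cells ended, without B6_Bs array 2 (limma adjusted p = 0.0562). All H2-Aa calls ended under centring with interquartile range scaling, and those in B6 cells also with median centring. The fourth, 1443783_x_at, lay near the floor, at 0.495 to 1.31 units in Sle2c1_B1a and 0.495 to 1.25 in B6_Bs, and passed in neither strain. Its difference was -0.10 units in Sle2c1 cells and 0.39 in B6 cells (adjusted p = 0.172), the highest among the members, and in B6 it passed as higher with array weights (adjusted p = 0.00606) and without B6_Bs array 1 (0.0453).
H2-Ab1 1450648_s_at read 3.55, 3.59, 3.53 and 3.54 units in Sle2c1_B1a, against 3.80, 3.81, 3.77 and 3.80 in Sle2c1_Bs. It read 3.58, 3.62, 3.58 and 3.59 units in B6_B1a, against 3.78, 3.82, 3.71 and 3.87 in B6_Bs. Again the cell types did not overlap, with differences of -0.24 (limma adjusted p = 0.00214) and -0.20 units (adjusted p = 0.00933). Both calls ended under centring with interquartile range scaling, and that in B6 cells also with median centring. Both other H2-Ab1 probe sets missed the threshold, at -0.16 and -0.105 units in Sle2c1 cells and -0.05 and 0.0075 in B6 cells. H2-Eb1 read 3.57, 3.59, 3.53 and 3.50 units in Sle2c1_B1a, against 3.71, 3.7, 3.62 and 3.66 in Sle2c1_Bs, without overlap. It read 3.63, 3.69, 3.64 and 3.59 units in B6_B1a, against 3.77, 3.69, 3.50 and 3.68 in B6_Bs, where the ranges overlapped. Neither difference passed (-0.13 units, 95% interval -0.25 to 0.0043, and -0.0225, -0.15 to 0.11).

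Cd74 read 3.83, 3.88, 3.86 and 3.79 units in Sle2c1_B1a, against 4.14, 4.08, 4.02 and 4.02 in Sle2c1_Bs. It read 3.91, 3.98, 3.97 and 3.90 units in B6_B1a, against 4.21, 4.16, 4.00 and 4.13 in B6_Bs. All B1a arrays lay below the Bs arrays of their strain. B1a minus Bs was -0.225 units in Sle2c1 (limma adjusted p = 0.0105) and -0.185 in B6 (adjusted p = 0.0353), and under the 3 other scalings neither passed (adjusted p from 0.184 to 1). The B6 call also ended with no floor (adjusted p = 0.0544), a floor at the 25th percentile (0.0553), only the compared arrays in the fit (0.0628) and centring on high-level probe sets (0.0515). The call in B6 cells ended without any 1 of 7 arrays, all 4 of B6_B1a and arrays 1, 2 and 4 of B6_Bs (adjusted p up to 0.0934), whereas without B6_Bs array 3 the adjusted p was 0.0118.

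The mean over 9 genes, with 1 probe set for each gene that had one of its own, was 3.1 to 3.22 units in Sle2c1_B1a, 3.19 to 3.25 in B6_B1a, 3.41 to 3.49 in Sle2c1_Bs and 3.33 to 3.50 in B6_Bs. Neighbours of the same cell type overlapped in this order, and B1a and Bs did not. Of 6990 named genes above the floor on all arrays, those whose values were most like this mean over the 16 arrays were Ms4a1 (r = 0.98), which encodes the B cell surface protein CD20, Ighv14-2 (0.977), Igkv8-30 (0.976), Hps3 (0.974) and Rap1b (0.973). For Ciita, read at 1421211_a_at alone, they were Gpr155 (0.975), Dexi (0.97), Sdf2l1 (0.966), Traf3ip3 (0.963) and Cnn3 (0.962). All these correlations run across the groups and so include the difference between B1a and Bs arrays. Dexi lies on chromosome 16 with 1 gene between it and Ciita in RefSeq gene order. Ms4a1 itself was lower in B1a cells, with differences of -0.23 units in Sle2c1 (limma adjusted p = 0.00343) and -0.17 in B6 (adjusted p = 0.0256). The B6 call was lost without any 1 of 5 arrays (up to 0.0751), and both were lost under the 3 other scalings, 1 of which turned the B6 difference to 0.0019.
Of 7 B cell markers 4 were lower in Sle2c1 B1a cells (14.2% of all named genes). In B6 B1a cells 3 were lower and 1 higher (10.8% and 11% of all named genes). Their mean level was 2.73 to 2.81 units in Sle2c1_B1a, against 2.86 to 2.93 in Sle2c1_Bs, and 2.77 to 2.85 in B6_B1a, against 2.81 to 2.99 in B6_Bs. The part that the makeup of the preparations had in the class II differences was not tested.

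Among the proteins that bind the class II promoter and act upstream of it, 3 of 13 tested genes were lower and 1 higher in Sle2c1 B1a than in Bs cells, and 4 lower and 3 higher in B6, against 14.2% lower and 12.8% higher (Sle2c1) and 10.8% lower and 11% higher (B6) of 15129 named genes. The median differences of the list were -0.045 and 0.04 units, against -0.0075 over all named genes in both strains. Rfx5, the subunit of RFX that binds the X box, read 3.08, 3.07, 3.06 and 3.04 units in Sle2c1_B1a, against 3.53, 3.55, 3.49 and 3.56 in Sle2c1_Bs, and 3.13, 3.06, 3.06 and 3.03 in B6_B1a, against 3.51, 3.54, 3.41 and 3.52 in B6_Bs. The groups did not overlap, and B1a minus Bs was -0.47 units in Sle2c1 (limma adjusted p = 7.1e-06) and -0.425 in B6 (adjusted p = 2.4e-05). Both calls ended under centring with interquartile range scaling (-0.37 and -0.29 units, adjusted p = 0.219 and 0.37). Creb1, which binds beside RFX, differed by -0.31 and -0.295 units (adjusted p = 0.00157 and 0.00297).
Prdm1, the repressor of Ciita, read 3.04, 2.94, 2.79 and 3.14 units in Sle2c1_B1a, against 1.31, 1.31, 1.02 and 1.65 in Sle2c1_Bs, and 3.00, 2.89, 2.82 and 2.84 in B6_B1a, against 1.24, 1.06, 0.53 and 1.28 in B6_Bs. It was thus higher in every B1a array than in any Bs array, by 1.66 units in Sle2c1 (limma adjusted p = 2.56e-06) and 1.86 in B6 (adjusted p = 8.93e-07). Irf8 was lower in both strains (-0.19 and -0.195 units), calls that ended without any 1 of 6 (Sle2c1) or 8 (B6) arrays (adjusted p up to 0.0917 and 0.103). In B6 cells Nfyb was lower (-0.26 units), and Irf4 (0.305) and Irf1 (0.30) were higher, the Irf1 call ending without any 1 of 3 arrays (adjusted p up to 0.0627).

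**Figure D3:**
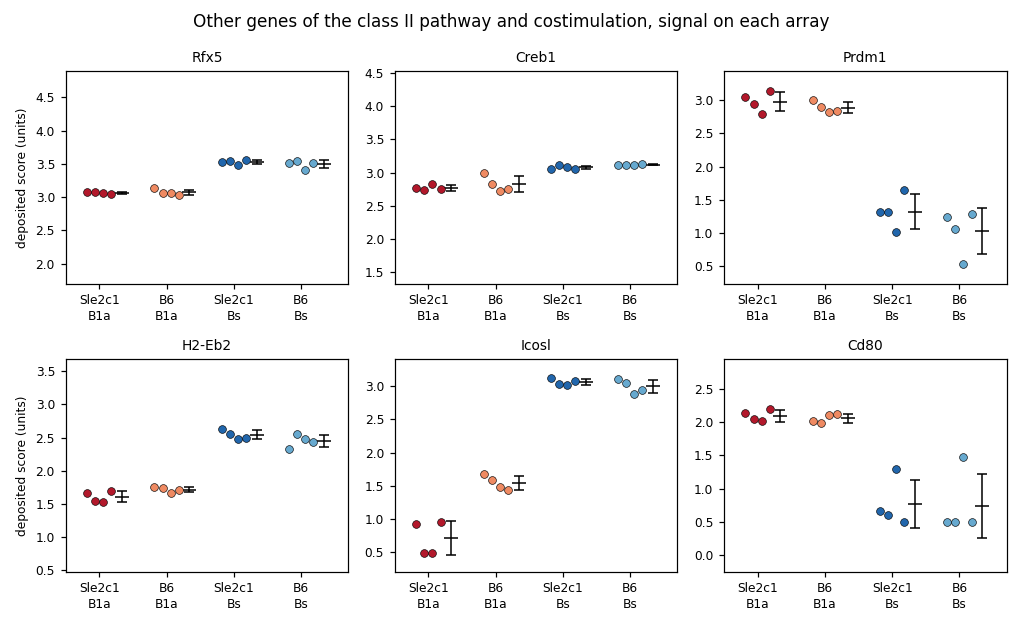
Deposited score of 6 other genes of the class II pathway and of costimulation on each of the 16 arrays, with the mean and SD of each group of 4 beside the points. Rfx5, Creb1, H2-Eb2 and Icosl lie lower and Prdm1 and Cd80 higher on B1a than on Bs arrays, and Icosl lies at the floor of 0.495 units on 2 Sle2c1_B1a arrays.

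In the class II region, H2-Eb2, a second beta chain gene, read 1.66, 1.55, 1.53 and 1.70 units in Sle2c1_B1a, against 2.63, 2.56, 2.48 and 2.5 in Sle2c1_Bs, and 1.75, 1.74, 1.67 and 1.71 in B6_B1a, against 2.33, 2.55, 2.48 and 2.43 in B6_Bs. The groups did not overlap, and B1a minus Bs was -0.93 units in Sle2c1 (limma adjusted p = 7.81e-08) and -0.73 in B6 (adjusted p = 1.2e-06). Both passed under each alternative run and without each array. Tap1, a peptide transporter subunit of class I presentation, passed in B6 (-0.20 units, adjusted p = 0.0349, lost without any 1 of 5 arrays, up to 0.108) and not in Sle2c1 (-0.12 units). In all, 1 (Sle2c1) and 2 (B6) of the 8 region genes passed, all lower, against 14.2% and 10.8% of all named genes called lower. H2-Ea, silent in the b haplotype, lay at the floor on 3 or 4 arrays of each group at probe set 1422892_s_at, with a highest reading of 0.88 units. Its other 2 probe sets reached at most 1.24 units.

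Genes of lysosomal processing moved in both directions, 4 of 12 higher and 4 lower in Sle2c1 B1a cells and 2 higher and 2 lower in B6. Over all named genes 12.8% were called higher and 14.2% lower in Sle2c1, and 11% higher and 10.8% lower in B6. Ctss, the cathepsin that makes the last cut of the invariant chain in B cells, was lower in both strains (-0.25 units in Sle2c1, limma adjusted p = 0.00115, and -0.20 in B6, adjusted p = 0.00774), as was Cst3, a cathepsin inhibitor (-0.295 and -0.16 units). The Cst3 call in B6 ended without any 1 of 8 arrays (adjusted p up to 0.0861). Ctsz, a carboxypeptidase, was higher by 0.585 and 0.535 units, and Ifi30 (GILT), which reduces disulfide bonds of antigens, by 0.44 and 0.51.
Of 7 genes of class II turnover and of Cd74 partners, 3 were higher and 1 lower in each strain, beside the same shares of all named genes. Cd83, which opposes class II ubiquitination, was higher by 0.27 and 0.295 units, and the tetraspanin Cd9 by 0.715 and 0.66. Marchf1, the ligase that ubiquitinates class II, was lower (-0.20 and -0.18 units), calls that ended without any 1 of 4 (Sle2c1) and 13 (B6) arrays (adjusted p up to 0.0711 and 0.133). Of the class I genes, 2 of 13 were higher and 2 lower in Sle2c1, and 1 higher and 3 lower in B6. Over all named genes the shares were 12.8% higher and 14.2% lower in Sle2c1, and 11% higher and 10.8% lower in B6. Erap1, a peptide-trimming peptidase, was higher by 0.43 and 0.28 units, and B2m, the light chain of class I, was lower (-0.21 and -0.22). Of the genes named from these lists, Ctsz, Cd9, Prdm1 and H2-Eb2 passed under all 3 other scalings in both strains, whereas Ctss, B2m, Irf8 and Marchf1 passed under none of them in either.

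The genes that accompany peptide presentation with costimulation differed in both directions. Of 6 tested genes 4 were higher and 2 lower in Sle2c1 B1a cells (12.8% and 14.2% of all named genes). In B6 B1a cells 4 were higher and 1 lower (11% and 10.8% of all named genes). Icosl, the ligand of ICOS on T cells, read 0.93, 0.495, 0.495 and 0.95 units in Sle2c1_B1a, against 3.12, 3.03, 3.02 and 3.08 in Sle2c1_Bs, and 1.68, 1.59, 1.48 and 1.44 in B6_B1a, against 3.11, 3.05, 2.89 and 2.95 in B6_Bs. It was lower in B1a cells of both strains without overlap, with differences of -2.345 units in Sle2c1 (limma adjusted p = 9.65e-10) and -1.45 in B6 (adjusted p = 1.93e-07), the B6 call ending with no floor or a lower one. Cd80, a ligand of CD28 and CTLA4, was higher in B1a cells of both strains (adjusted p = 0.000258 and 0.000374), at 2.01 to 2.2 units in Sle2c1_B1a, against 0.495 to 1.29 in Sle2c1_Bs, and 1.99 to 2.12 in B6_B1a, against 0.495 to 1.47 in B6_Bs. It lay at the floor on 1 of the 4 Sle2c1_Bs and 3 of the 4 B6_Bs arrays, so that the size of the difference depends on the floor. Cd86, Cd274 (PD-L1) and Pdcd1lg2 (PD-L2) were higher in both strains, by 0.29 to 0.815 units, and Cd40 was lower in Sle2c1 (-0.455 units).

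The comparison of strains asks what the Sle2c1 segment changes within a cell type. In B1a cells 0 of the 22 member probe sets passed limma's test for Sle2c1 against B6, against 3.51% of all probe sets tested, and 0 reached an unadjusted p under 0.05 (17.2% of all). The differences ran from -0.37 to 0.22 units with a median of -0.0625, against 0.015 over all probe sets, 18 of them negative and 4 positive. The member median was -0.1875 units with median centring, against -0.085 over all probe sets, and -0.28 with interquartile range scaling added, against -0.12. The lowest adjusted p was 0.347. Groups did not overlap, with Sle2c1 lower, at 3 of the 22 (4.28% of all) and, with Sle2c1 higher, at 0. These were Cd74, H2-Ob 1440837_at and H2-Ab1 1451721_a_at, whose differences were -0.10, -0.0875 and -0.0575 units (adjusted p = 0.395, 0.403 and 0.657).
The 2 Ciita probe sets that differed between cell types averaged 1.40 ± 0.341 and 1.08 ± 0.253 units in Sle2c1_B1a, against 1.53 ± 0.178 and 1.26 ± 0.113 in B6_B1a (SD, n = 4 each). Their strain differences were -0.13 (95% interval -0.42 to 0.16) and -0.18 units (-0.40 to 0.0412). Leaving out 1443783_x_at of H2-Aa and 1447075_at of Ciita, which scattered most, the 95% intervals of the members lay within -0.42 to 0.21 units. The hybridisation control cre is added in the same amount to every sample. It also read lower on all 4 Sle2c1_B1a arrays (4.53 to 4.70 units) than on the B6_B1a arrays (4.73 to 4.76 units). The control bioB did not, at 3.35 to 3.50 units in Sle2c1_B1a and 3.09 to 3.43 in B6_B1a. The part of the controls' shifts in these small differences was not tested.

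**Figure D4:**
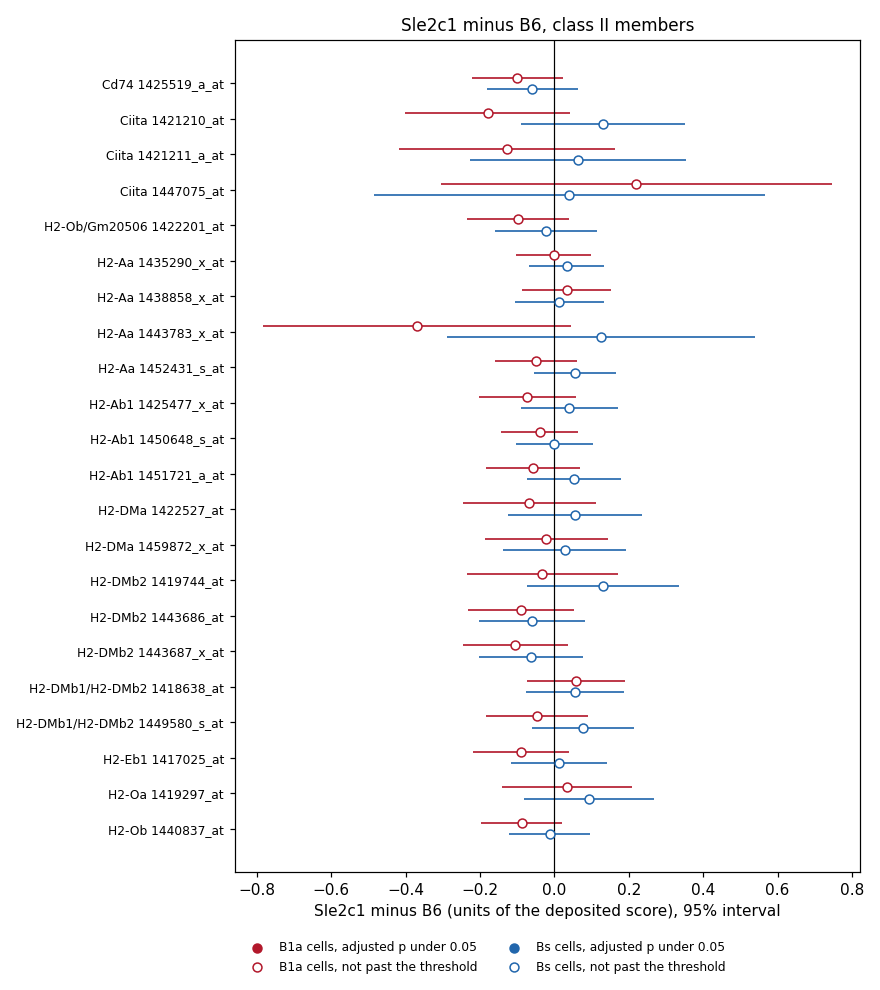
Difference of Sle2c1 minus B6 for each of the 22 member probe sets, in units of the deposited score, in B1a cells (red) and in Bs cells (blue). Points are differences of group means of 4 arrays, bars are 95% intervals of the limma fit, and open points did not pass an adjusted p of 0.05, which holds for all 44 differences shown.

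In Bs cells 0 of the 22 passed by limma (0.131% of all probe sets) and 0 had an unadjusted p under 0.05 (3.45% of all). The differences ran from -0.0625 to 0.13 units with a median of 0.04, 16 of them positive, and all adjusted p were 1. Their direction turned with the scaling, since 17 of the 22 were negative with median centring (median -0.035) and 21 with interquartile range scaling added (median -0.13). The groups overlapped at all 22 probe sets, while 1.1% of all probe sets were apart with Sle2c1 lower and 1.24% with Sle2c1 higher. Within the 4 pairs of Bs arrays with the same replicate number, Sle2c1 was higher than B6 in every pair at 3 of the 22 (7.24% of all probe sets) and lower in every pair at 0 (4.59%). These were 1418638_at of H2-DMb1/H2-DMb2 (0.05 to 0.06 units), 1419744_at of H2-DMb2 (0.07 to 0.24) and 1452431_s_at of H2-Aa (0.02 to 0.11), and with the number as a block within each cell type the lowest adjusted p of a member was 0.926. Ciita averaged 2.10 ± 0.0759 and 1.73 ± 0.056 units in Sle2c1_Bs, against 2.03 ± 0.0512 and 1.6 ± 0.0638 in B6_Bs, Cd74 averaged 4.07 ± 0.0574 and 4.13 ± 0.0896, and H2-Ab1 1450648_s_at 3.80 ± 0.0173 and 3.80 ± 0.0676. The strain effects in B1a and Bs cells were also tested against each other. Of the 22 members 0 passed by limma (0.462% of all probe sets) and 0 had an unadjusted p under 0.05 (7.76% of all), with differences from -0.495 to 0.18 units and a lowest adjusted p of 0.648. For Ciita the strain effect in B1a cells minus that in Bs cells was -0.19 and -0.31 units (adjusted p = 0.928 and 0.648).

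Around the members, no gene of the lists of the class II region, promoter factors and regulators, processing, turnover and class I presentation passed for strain in B1a cells, and in the costimulation list Icosl did. Sle2c1_B1a minus B6_B1a was -0.83 units (limma adjusted p = 0.000403), and no Sle2c1 array reached a B6 array. Without a floor the difference was -3.87 units and did not pass (adjusted p = 0.203). The corresponding difference in Bs cells did not pass, and the strain effects in B1a and Bs cells differed by -0.89 units (adjusted p = 0.0166). This call ended under 5 alternatives (adjusted p up to 0.833), among them the replicate number as a block within each cell type (0.0618). Icosl was at the floor on 2 of the 4 Sle2c1_B1a arrays, so that the size of these differences depends on the floor.
Macrophages also carry class II molecules. Of 14 tested macrophage markers 8 were lower in Sle2c1_B1a than in B6_B1a (1.83% of all named genes), and the mean level of 15 markers was 1.05 to 1.12 units on Sle2c1_B1a arrays, against 1.37 to 2.31 on B6_B1a arrays. Csf1r, Timd4, C1qb, C1qc, Apoe and Marco were at the floor on all 4 Sle2c1_B1a arrays, and C1qb averaged 2.17 units in B6_B1a. In Bs cells the marker mean was 0.973 to 1.14 units in Sle2c1 and 1.21 to 1.29 in B6. Between cell types 3 markers were higher and 4 lower in Sle2c1 B1a cells, and 9 were higher in B6 B1a cells. Over all named genes 12.8% were higher and 14.2% lower in Sle2c1, and 11% higher and 10.8% lower in B6. Dendritic cell markers were lower in B1a cells at 2 (Sle2c1) and 1 (B6) of 8 and did not differ by strain, and T cell markers were lower at 1 of 7 in Sle2c1_B1a against B6_B1a. Between cell types, 1 T cell marker was higher and 1 lower in Sle2c1 B1a cells, and 2 were higher and 1 lower in B6 B1a cells. The part of these cells in the class II signals was not tested.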

How the data were processed

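RNA of 16 samples was extracted with an RNeasy Micro kit and amplified and biotin-labelled with the NuGEN Ovation system, per the labels' protocols, and read on Affymetrix mouse arrays. The authors deposited 1 score per probe set and array for 45101 probe sets (64 controls). How it was made is not given in the sources used here, and a log2 scale could not be established. The spike-in controls cre and bioB differed by only 0.688 to 1.70 units. Each array had its own lowest value (-7.72 to -4.99), shared by 22.8% to 35.6% of its probe sets. The number of arrays limits the precision.

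Values were raised to 0.495, the 40th percentile of an array (median of the 16), and a probe set was tested (35032 were) if it exceeded that percentile within 4 or more single arrays. Gene names are the platform's (34958 probe sets with 1 symbol, 932 with several, 9211 with none), and 99.42% of the single symbols matched RefSeq's GRCm38.p6 gene table. In list counts each gene was read from its brightest probe set. All 4 group means were fitted together with limma 3.58.1 (R 4.3.3, statmod 1.5.0), and p-values (two-sided) were adjusted by Benjamini-Hochberg across the 35032 probe sets, with a threshold of 0.05. The procedure was tested on simulated data.

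The members and gene lists were chosen with earlier results of these data known. Named genes are the members, at most 4 per list and comparison (those ranking first by adjusted p), and the 5 most correlated with the member mean and with Ciita. Other list genes past the threshold, and Cdkn2c, C1qb and the floor-level markers, were named after their values were seen. The 13 other lists held 103 tested genes, of which 12 passed for strain in B1a cells, 0 for strain in Bs cells (8 at an unadjusted p under 0.05), 3 for the difference of strain effects, and 49 (Sle2c1) and 51 (B6) for cell type. Of 6 plasma cell markers 1 was higher and 1 lower for strain in B1a cells, 1 and 1 for cell type in Sle2c1, and 2 and 2 in B6. Alternatives were other floors, filters, scalings and forms of the test, replicate number as a block, and leaving out each array, or 3 or 4 in doubt. Centring on high-level probe sets and the signs within pairs of Bs arrays were added after seeing the data. The fit reported held no block for replicate number, which entered as a block only in alternatives. Signs within pairs of equal number were counted in Bs cells and not in B1a cells. Deviations of same-numbered arrays of the strains correlated at 0.106 to 0.596 in Bs cells and at -0.004 to 0.146 in B1a cells. The labels do not say what the numbers mean, so p-values measure the spread between these samples.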

Additional observations from a re-analysis of the deposited data

Results flagged for a closer look

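In 8 of the 88 groups of 4 arrays tested over the 22 member probe sets, 1 array stood far from the other 3, where chance gives about 1 in 20. Of these, 5 lie on Bs array 4, in both strains, and concern H2-DMb1 and H2-DMb2. The H2-DMb1/H2-DMb2 probe set 1418638_at was high there, at 2.95 units in Sle2c1_Bs 4 and 2.90 in B6_Bs 4, while H2-DMb2 1419744_at was low, at 2.91 in Sle2c1_Bs 4 and 2.67 in B6_Bs 4, and the shared 1449580_s_at was low at 2.91 in Sle2c1_Bs 4. The others were 1418638_at in Sle2c1_B1a 1 (2.71), 1419744_at in B6_B1a 1 (2.91) and H2-Aa 1443783_x_at in Sle2c1_Bs 2 (1.17).

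Of the 128 groups of 32 other genes named, 12 held such an array. On B6_B1a 1 these were B2m (3.95), Cd40 (2.43), Cd83 (3.94) and Cst3 (3.55), and on B6_B1a 4 Cd9 (2.23) and Irf4 (3.64). On Sle2c1_B1a arrays they were Cd86 on array 3 (2.04), Ctsb on array 2 (3.09) and Ctsz on array 4 (3.33). On Bs arrays they were Cd80 on B6_Bs 3 (1.47), Irf1 on B6_Bs 4 (2.5) and Nlrc5 on Sle2c1_Bs 4 (3.12).

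The strain effects in B1a and Bs cells differed by limma's interaction term for Icosl (-0.89 units, adjusted p = 0.0166) and for the macrophage markers Timd4 (-1.92, adjusted p = 0.0337) and Apoe (-0.89, adjusted p = 0.0053). All 3 involve groups at the floor of 0.495 units, so their sizes depend on it. Icosl was at the floor on 2 of 4 Sle2c1_B1a arrays, Timd4 on 4 of 4 Sle2c1_B1a and 1 of 4 B6_Bs arrays, and Apoe on 4 of 4 Sle2c1_B1a and 3 of 4 Sle2c1_Bs arrays. Apoe therefore has almost no measured level in Sle2c1 cells, its term rests on the means of 1.70 units in B6_B1a and 0.818 in B6_Bs, and with no floor it was 0.145 (adjusted p = 1). The calls of Icosl, Apoe and Timd4 ended under 5, 5 and 6 other alternatives, and that of Timd4 also without any 1 of 8 arrays (adjusted p up to 0.0852).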

How the results depend on the processing

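The counts of member probe sets past the threshold stayed at 0 for strain in B1a cells, strain in Bs cells and the difference of strain effects in all 33 alternatives. For cell type, the count moved from 14 in Sle2c1 and 11 in B6 to 7 and 1 with median centring, 8 and 5 with quantile normalization, and 2 and 0 with median centring and interquartile range scaling. Of all 35032 probe sets these 3 scalings called 7107 and 6119, 8268 and 6955, and 5573 and 5384. With 1 probe set for each gene that had one of its own, and the 3 probe sets with a pair of symbols kept, 9 of 12 passed in each strain. In that setting 5857 (Sle2c1) and 4834 (B6) of all 22727 probe sets tested passed in either direction. In the fit reported, 6 (Sle2c1) and 5 (B6) of the 9 genes with a probe set of their own passed at their brightest probe set, all lower. Of all named genes 14.2% and 10.8% were called lower there. Under the other alternatives that keep all arrays the count of the 22 ran from 14 to 17 in Sle2c1 and from 9 to 16 in B6, where array weights called 15 lower and 1 higher (H2-Aa 1443783_x_at). Without 3 or 4 arrays in doubt it was 14 and 14 in Sle2c1 and 13 and 12 in B6. Leaving out each array in turn gave 11 to 16 in Sle2c1 and 8 to 13 in B6, and without B6_Bs replicate 1 the 11 in B6 were 10 lower and 1 higher. No member that passed in any of these settings changed its sign. The sign changed, with neither value past the threshold, in 12 of 694 member values for cell type in B6 and 6 of 694 in Sle2c1. It did so in 17, 72 and 28 of 716 for strain in B1a, strain in Bs and the difference of strain effects. The totals of 694 include values past the threshold. Under centring with interquartile range scaling the small differences of Calr (0.0012) and Ms4a1 (0.0019) in B6 cells, B1a minus Bs, had the opposite sign, and with no floor that of Apoe did (0.145, difference of strain effects), each with an adjusted p of 1. That scaling moved the median strain difference of all probe sets in B1a cells to -0.12, against 0.015, and the median cell type difference in Sle2c1 was -0.185 with no floor, against -0.026. With replicate number as a block, pairing the arrays, the member counts were 0, 0 and 0 for strain and its difference, 14 in Sle2c1 and 12 in B6, and 0, 0 and 0 with the block within each cell type, so that the pairing changed no strain call of a member. It did end the Icosl call for the difference of strain effects within each cell type (-0.89, adjusted p = 0.0618). Counts over all probe sets ranged from 630 to 1767 for strain in B1a cells (1231 in the fit reported), from 7 to 466 in Bs cells (46), from 19 to 454 for the difference of strain effects (162), from 5573 to 10729 for cell type in Sle2c1 (8676) and from 4766 to 14518 in B6 (6984). The causes were not tested.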
